A study of Rattus norvegicus with 6 samples.

Results

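The 14-3-3 genes Ywhaz, Ywhab, Ywhae, Ywhag, Ywhah and Ywhaq were examined isoform by isoform in rat lung with bleomycin-induced pulmonary fibrosis (PF). All rows of the deposited table of linear transcripts that carry the name of one of these 6 genes were taken, which gave 18 rows of 70376. Of the 18 rows, 8 were annotated isoforms with an Ensembl identifier and 10 were isoforms that the authors' assembly added. The family was selected on a measured value, the FPKM of an assembled isoform of Ywhaz that had stood out between the groups. The values of Ywhaz are therefore given as a description without a test, and the other 5 genes entered by the family name alone.

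The samples were lung specimens of 6 Sprague–Dawley rats, which were 7 weeks old when the study began. The model group (n = 3) received bleomycin, a DNA-damaging drug that injures the lung, at 7 mg/kg once into the trachea, and the control group (n = 3) received saline in the same way. Lungs were taken on day 28, and 1 library depleted of ribosomal RNA and built with a strand-specific kit was sequenced from each rat as paired reads of 150 bases. The whole specimen was used, so the cell types of the lung were not separated, and in such bulk RNA fewer cells of a type and less RNA per cell cannot be told apart.

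The 14-3-3 proteins are adaptors that work as dimers and hold client proteins by short motifs with a phosphorylated serine or threonine. By this binding they keep clients such as RAF kinases, the death factor BAD, FOXO transcription factors and the Hippo coactivators YAP and TAZ active, inactive or out of the nucleus. Each isotype has its own gene and a Greek letter, namely zeta (Ywhaz), beta (Ywhab), epsilon (Ywhae), gamma (Ywhag), eta (Ywhah) and theta, also called tau (Ywhaq).

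Abundance is given as FPKM, the sequenced fragments scaled by the length of the transcript and the size of the library, and each isoform is also given as its share, the percentage of the FPKM summed over all rows of its gene name in the same library. The coverage in the table corresponds to between 35778631 and 41112682 reads on linear transcripts per library. Of 8 lung markers, 7 were in the table (Cldn5 was not). Sftpc, the surfactant protein of type II alveolar cells, lay between 2410 and 4146 FPKM, and the lowest of the 7, the transcription factor Nkx2-1, between 5.01 and 41.4 FPKM. A list of 5 fibroblast and matrix genes (Col1a1, Col3a1, Fn1, Timp1, Acta2) summed to 371.4 ± 31.4 FPKM in control and 437.3 ± 67.4 in model samples (SD, n = 3 each), with overlap. None of the 5 was called by the rule below. Col3a1, a fibrillar collagen, did not overlap (168.5 and 208.3 FPKM, unadjusted p = 0.0366 and adjusted p = 0.933 by limma). Col1a1 (63.0 and 72.4 FPKM), Fn1 (75.0 and 83.0) and Acta2 (56.0 and 66.1) overlapped with a higher model mean. Timp1 overlapped with a lower one (8.86 and 7.57 FPKM). The sum of 4 leukocyte markers was 56.6 ± 8.71 in control and 50.8 ± 12.2 FPKM in model samples, with 0 of 4 called. The heart muscle markers Myh6, Myl7 and Nppa summed to between 0 and 0.283 FPKM in 5 libraries and to 7.18 FPKM in model 3, and that library is named again where it decides a value. Of the 3, Myh6 did not pass the filter described below and was not tested. Nppa, an atrial hormone, was called, at 0.0357 FPKM in control and 0.157 in model samples (adjusted p = 0.933 by limma). Nppa was at 0 in controls 2 and 3, so this call lies near the floor. Of all 19645 gene sums, 1.52% were called by the rule and 10.7% did not overlap between the groups.

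Of the 6 genes, Ywhag and Ywhah are the ones with a pair of annotated isoforms. In the table these start at different positions, 37 bases apart for Ywhag and 122 bases apart for Ywhah, and both pairs turned out to differ among the libraries. The 250 bases before the RefSeq start of each gene are therefore printed, from the assembly GRCr8, in the direction of transcription and with capitals at the matches to 4 motifs. The first is Ywhag, chr12:26380969-26381218 on the plus strand, and the second is Ywhah, chr14:81930203-81930452 on the minus strand.
Ywhag: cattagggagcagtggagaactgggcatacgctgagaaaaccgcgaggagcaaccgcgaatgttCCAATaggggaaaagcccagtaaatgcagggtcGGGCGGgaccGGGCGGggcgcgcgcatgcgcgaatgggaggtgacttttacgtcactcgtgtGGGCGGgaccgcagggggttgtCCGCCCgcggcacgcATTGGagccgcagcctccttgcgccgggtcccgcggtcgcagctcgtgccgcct
Ywhah: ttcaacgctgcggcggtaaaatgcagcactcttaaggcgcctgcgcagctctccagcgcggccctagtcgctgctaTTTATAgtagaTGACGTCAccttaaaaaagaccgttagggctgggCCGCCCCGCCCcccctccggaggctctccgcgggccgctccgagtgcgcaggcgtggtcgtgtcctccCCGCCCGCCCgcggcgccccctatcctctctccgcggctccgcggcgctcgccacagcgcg

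The first motif was the cyclic AMP response element TGACGTCA, which is its own reverse complement. The others were the GC box GGGCGG, the box known as CCAAT and the core promoter element TATAAA. All were searched on both strands, and matches that overlapped were each counted. Upstream of Ywhag there were 4 matches to GGGCGG and 2 to CCAAT. Upstream of Ywhah there were 4 to GGGCGG, 1 to TATAAA and 1 to TGACGTCA. Of the 33469 promoters of that table, 30.5% held GGGCGG, 34.0% held CCAAT, 12.9% held TATAAA and 1.59% held TGACGTCA. Both windows were rich in CpG, the dinucleotide at which DNA is methylated, with 30 for Ywhag and 33 for Ywhah against a median of 5 over all promoters. RefSeq promoters were matched for 5 of the 6 genes, and Ywhab, Ywhae and Ywhaq held 20, 26 and 25 CpG. Ywhaz had no entry. A match is a run of letters and not a measured binding site. The positions below are those of the deposited table, whose build is not given in the sources used here, and they were not set against GRCr8.

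All 6 genes were expressed in every library. Their levels, summed over all rows of the gene name, were ordered as follows. Ywhae, the epsilon gene, was highest with a mean of 120.1 FPKM over the 6 libraries. Ywhaq followed with 74.0, Ywhab with 40.8, Ywhaz with 36.0, Ywhah with 24.2 and Ywhag with 23.4 FPKM. Ywhae lay above Ywhaq and Ywhaq above Ywhab in 6 of 6 libraries, with no overlap of their ranges. Ywhab lay above Ywhaz in 5 of 6 libraries, and their ranges overlapped between 35.4 and 40.1 FPKM. Ywhaz lay above Ywhah in 6 of 6 libraries, by a narrow gap between a lowest Ywhaz value of 29.7 and a highest Ywhah value of 28.8 FPKM. Ywhah and Ywhag could not be ordered, since Ywhah was the higher in 3 of 6 libraries. The place of Ywhaz depends on its opposite-strand row, described below. Summed over the rows on the strand of the gene, a choice made after the values were seen, Ywhaz had a mean of 21.9 FPKM, beside 24.2 for Ywhah and 21.9 for Ywhag. On these rows Ywhaz was above Ywhah in 2 and above Ywhag in 3 of 6 libraries, so these 3 genes could not be ordered by them. The order of Ywhae, Ywhaq and Ywhab on these rows, and their place above the other 3, held in 6 of 6 libraries. These rows leave out transcripts of the same assembled loci that are named after neighbouring genes, described below. With those added, the mean was 29.7 FPKM for Ywhaz and 24.2 for Ywhag, so the place of Ywhaz also depends on them.

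**Figure D1:**
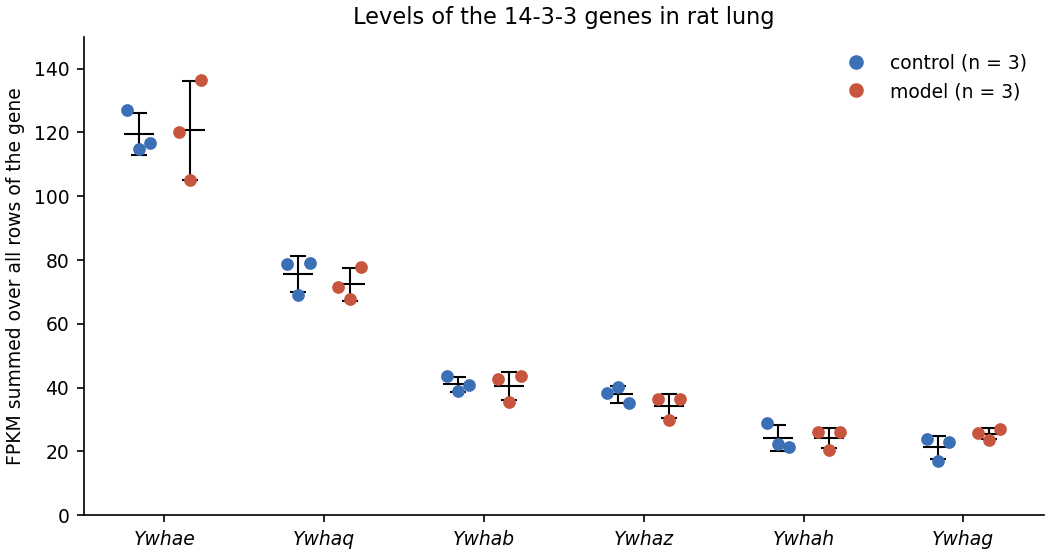
FPKM summed over all rows of each 14-3-3 gene (y axis, linear) in the 3 control (blue) and 3 model (red) libraries, with the mean and SD of each group as black bars. The groups overlap for all 6 genes, from Ywhae with a mean of 120.1 FPKM down to Ywhag with 23.4 FPKM.

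The sums of the groups overlapped for each of the 6 genes. The FPKM summed over the family was 319.4 ± 19.3 in control and 317.4 ± 32.9 in model samples (SD, n = 3 each). A gene or isoform was called changed when the unadjusted p of limma on log2(FPKM + 1) was at most 0.05 and the ratio of group means was at least 1 log2 unit in size. Fold changes below are on that log2(FPKM + 1) scale, which understates the change of low values, and are model minus control. By this rule 0 of the 5 tested gene sums were called, beside 1.52% of the 19645 gene sums tested. None of the 5 had an unadjusted p of at most 0.05 (4.91% of all) or an adjusted p below 0.05 (0.0102% of all). The 5 log2 fold changes lay between -0.06 for Ywhaq and 0.26 for Ywhag, which had 21.2 ± 3.65 FPKM in control and 25.5 ± 1.71 in model samples (standard error 0.14, unadjusted p = 0.0966, adjusted p = 0.933 by limma). Without control 2 the log2 fold changes were 0.12 for Ywhag and -0.12 for Ywhaq. For Ywhaz, which was not tested, the sums were 38.4, 40.1 and 35.1 FPKM in control and 36.5, 29.7 and 36.3 FPKM in model samples.

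Isoforms were then compared by the same rule. Among the 14 isoforms of the 5 other genes that passed the filter, FPKM above 0 in at least 3 of 6 samples, 1 was called, which was higher in the model, beside 2.98% of the 64867 transcripts tested (1.22% higher and 1.76% lower). None of the 14 passed a Benjamini-Hochberg adjusted p below 0.05, which 0.0277% of all transcripts did, and 3 had an unadjusted p of at most 0.05, beside 4.53% of all. The median log2 fold change of the 14 was -0.0033, and that of all transcripts was -0.02. The isoform that the filter removed was MSTRG.8952.3 of Ywhag. Of all 18 rows, 5 had FPKM that did not overlap between the groups, beside 10.4% of all transcripts, and 2 of these 5 belonged to Ywhaz.

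At Ywhaz, the zeta gene on the minus strand of chromosome 7, the sum hid an isoform that was listed at 0 in every control library. This isoform, MSTRG.32789.3, spans positions 75567920 to 75597276 in 6 exons and 9152 bases. It had an FPKM of 0 in all 3 control samples and of 12.0, 10.7 and 11.5 in the model samples, which corresponds to estimates of 5340, 4321 and 4860 reads. Across the whole table, 33 transcripts (0.0469%) were at 0 in every control sample and above 0 in every model sample with a model mean of at least 1 FPKM, and 38 (0.054%) showed the reverse. These values led to the choice of the family and are no result in themselves.

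The annotated isoform ENSRNOT00000035628 spans 75574967 to 75597276 in 6 exons and 1794 bases. Its FPKM was 23.9, 23.4 and 17.9 in control and 9.84, 6.33 and 15.4 in model samples (21.8 ± 3.32 and 10.5 ± 4.58, SD, n = 3 each), and every model value lay under every control value. The assembled isoform starts at the same 5′ position, reaches 7047 bases beyond the annotated 3′ end and is 7358 bases longer as a transcript. The third row of the gene name, MSTRG.32790.1, is a single exon of 4565 bases on the opposite strand, between 75587486 and 75592050, and lies inside an intron (class i). Its FPKM was 14.4, 16.7 and 17.2 in control and 14.6, 12.7 and 9.34 in model samples, and the groups overlapped.

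In shares of the gene, MSTRG.32789.3 held 0% in the control libraries and 33.0%, 36.1% and 31.8% in the model libraries. The annotated isoform held 62.4%, 58.3% and 51.1% in control and 27.0%, 21.3% and 42.5% in model samples. The groups of both shares were apart, as were those of 9.77% of all isoform shares of genes with at least 2 rows. Both shares contain the values that led to the choice of the family. With the opposite-strand row left out, the annotated isoform held 100% of each control library and 45.0%, 37.1% and 57.2% of the model libraries. The sum of the sense rows of the gene name was then 21.8 ± 3.32 FPKM in control and 22.0 ± 4.95 in model samples. This sum leaves out MSTRG.32789.1, described next.

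A further transcript of the same assembled locus bears on these values, although the table names it after the neighbouring gene LOC362901. This transcript, MSTRG.32789.1, begins at the same 5′ position as Ywhaz, has 12 exons and 10551 bases, and reaches 30415 bases beyond the annotated 3′ end of Ywhaz. Its FPKM was 11.2, 10.6 and 12.2 in control and 4.92, 4.08 and 4.30 in model samples, so it was lower in the samples in which MSTRG.32789.3 was present. These long transcripts together had 11.2, 10.6 and 12.2 FPKM in control and 17.0, 14.8 and 15.9 in model samples. All 3 sense transcripts of the locus together had 33.1 ± 2.57 FPKM in control and 26.4 ± 5.07 in model samples. By estimated reads they had 7289 ± 691 in control and 7884 ± 1040 in model samples. The groups overlapped on both measures. Over this whole locus, MSTRG.32789.1 held 34.5% ± 5.30 of the FPKM in control and 17.1% ± 2.97 in model samples, the annotated isoform 65.5% ± 5.30 and 38.7% ± 9.83, and MSTRG.32789.3 0% and 44.2% ± 6.94 (SD, n = 3 each). How far the assembly's assignment of shared reads between these overlapping transcripts sets the 3 shares was not tested.

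**Figure D2:**
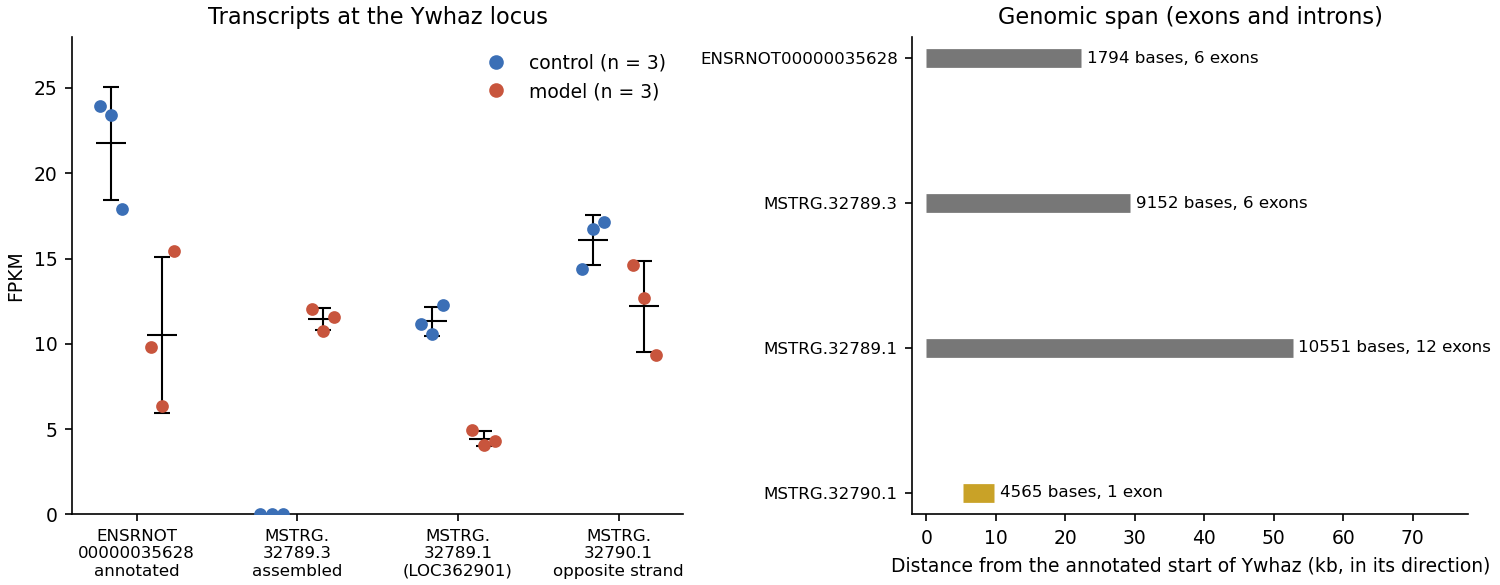
Left, FPKM (y axis) of the 4 transcripts at the Ywhaz locus in the control (blue) and model (red) libraries, with the mean and SD of each group. MSTRG.32789.3 sits at 0 in all 3 control libraries and between 10.7 and 12.0 in the model libraries, where the annotated isoform and MSTRG.32789.1 are lower. Right, the genomic span of each transcript, exons and introns together, as distance in kilobases from the annotated start of Ywhaz, in grey for sense and yellow for the opposite strand.

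At Ywhag, the gamma gene on the plus strand of chromosome 12, the minor of the 2 annotated isoforms was called higher in the model. ENSRNOT00000001954 spans 23789638 to 23817883 in 3 exons and 1604 bases. Its FPKM was 0.232, 0.226 and 0.138 in control and 3.87, 2.36 and 3.39 in model samples, and the lowest model value lay above every control value. The ratio of group means was 16.1 (4.01 on the log2 scale), and the log2 fold change was 1.79 (standard error 0.19, unadjusted p = 9.85e-05, adjusted p = 0.118 by limma). The call rests on the unadjusted p, and with the adjusted p it would not be made. The control values correspond to an estimated 17.2, 15.5 and 10.8 reads and the model values to 300.7, 166.6 and 249.9 reads.

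The main isoform of Ywhag, ENSRNOT00000084730, spans 23789675 to 23817865 in 2 exons and 3410 bases. It had 22.1, 15.5 and 21.4 FPKM in control and 19.3, 19.7 and 21.7 in model samples, with overlap (log2 fold change 0.05, standard error 0.15, adjusted p = 0.981 by limma). As a share, ENSRNOT00000001954 held 0.973%, 1.33% and 0.606% of the gene in control and 15.0%, 9.99% and 12.6% in model samples. The main isoform held 92.9%, 90.9% and 93.8% in control and 74.5%, 83.6% and 80.5% in model samples. The groups of both shares were apart, as were those of 9.77% of all isoform shares of genes with at least 2 rows. The annotated isoforms together held 93.5% ± 1.17 of Ywhag in control and 92.0% ± 2.21 in model samples (SD, n = 3 each). The FPKM of the main isoform overlapped between the groups. That of ENSRNOT00000001954 did not, like that of 10.4% of all transcripts tested. How far the assignment of shared reads between these isoforms, whose spans overlap, sets their values was not tested.

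The other rows of Ywhag were low. MSTRG.8952.3, which shares a splice junction with the annotation (class j), has 3 exons and starts at 23789368, was at 0 in 5 libraries and at 1.70 FPKM in model 1. The opposite-strand intronic row MSTRG.8954.1 lay between 1.01 and 1.87 FPKM. Here too the assembled locus holds a transcript with the name of a neighbour. This transcript, MSTRG.8952.2, is named Ssc4d, spans 23760049 to 23817865, ends where the main isoform ends and had 2.39, 6.14 and 0.544 FPKM in control and 0, 1.85 and 2.30 in model samples. With it added to the rows of Ywhag, the share of the main isoform was 84.5%, 66.8% and 91.6% in control and 74.5%, 77.5% and 74.2% in model samples, and the groups overlapped. The share of ENSRNOT00000001954 was then 0.884%, 0.976% and 0.592% in control and 15.0%, 9.26% and 11.6% in model samples, with no overlap.

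At Ywhah, the eta gene on the minus strand of chromosome 14, a single library had its isoforms the other way round. The main isoform, ENSRNOT00000085735, spans 83053041 to 83062424 in 2 exons and 1687 bases, and had 28.7, 21.6 and 21.0 FPKM in control and 25.4, 20.4 and 2.27 in model samples. The second isoform, ENSRNOT00000086769, spans 83053041 to 83062302 in 4 exons and 1237 bases, and had 0.175, 0.686 and 0.253 FPKM in control and 0.558, 0.126 and 23.9 in model samples. Model 3 thus had 91.3% of its Ywhah FPKM on the second isoform, which held between 0.606% and 3.08% in the other 5 libraries. The spans of both isoforms overlap, and how far the assignment of shared reads sets their values was not tested.

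The sum of both Ywhah isoforms in model 3, 26.2 FPKM, lay within the range of the other 5 libraries, 20.5 to 28.8 FPKM. The group sums were 24.1 ± 4.13 in control and 24.2 ± 3.22 FPKM in model samples (log2 fold change 0.01, standard error 0.15, adjusted p = 0.999 by limma). Neither isoform was called, with log2 fold changes of 1.38 (standard error 1.20) for the second and -0.999 (standard error 0.81) for the main isoform and an adjusted p of 0.945 for both by limma. Without model 3, which was left out after its values were seen, the log2 fold change of the second isoform was -0.03. Model 3 was also the library with 7.18 FPKM of heart muscle markers, of which Myh6, a cardiac myosin heavy chain, had 5.11 and Myl7, an atrial myosin light chain, had 1.92 FPKM. The part of this in the Ywhah isoforms was not tested.

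**Figure D3:**
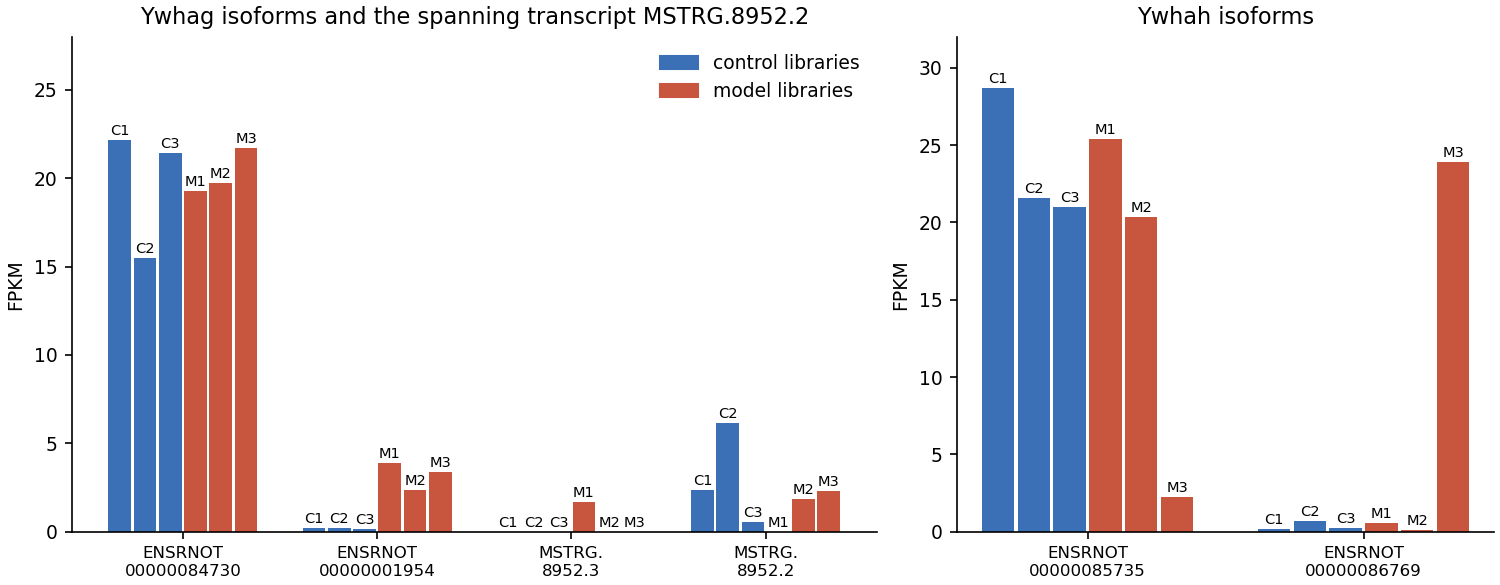
FPKM (y axis, from 0) of the Ywhag isoforms, of MSTRG.8952.2 (left) and of the Ywhah isoforms (right) in each control (C1 to C3, blue) and model (M1 to M3, red) library. ENSRNOT00000001954 lies at or under 0.232 in the control and at or above 2.36 in the model libraries, and M3 alone has most of its Ywhah on ENSRNOT00000086769.

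Ywhaq, the theta gene on the minus strand of chromosome 6, had 2 spliced isoforms over the same span, 43463294 to 43493816. The annotated isoform ENSRNOT00000077786 (6 exons, 2099 bases) had 57.7, 49.4 and 54.6 FPKM in control and 47.0, 42.5 and 62.7 in model samples. The assembled isoform MSTRG.30320.1 (5 exons, 2469 bases, class j) had 8.90, 6.33 and 11.8 FPKM in control and 14.3, 14.7 and 6.26 in model samples. Models 1 and 2 had more of the assembled isoform than any control library, and model 3 had less, so the groups overlapped. Neither isoform was called, with log2 fold changes of -0.10 (standard error 0.17) and 0.30 (standard error 0.37) and adjusted p of 0.959 and 0.950 by limma. Without model 3 these log2 fold changes were -0.26 and 0.67 (unadjusted p = 0.0495 and adjusted p = 0.968 for MSTRG.30320.1 by limma), and without control 2 that of MSTRG.30320.1 was 0.096. Its ratio of group means with all 6 libraries was under 1 log2 unit. Both spliced isoforms together had 62.9 ± 6.23 FPKM in control and 62.5 ± 5.94 in model samples (SD, n = 3 each).

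The remaining 2 rows of Ywhaq were lower in every model library than in every control library. Of all transcripts tested, 10.4% did not overlap between the groups. MSTRG.30321.1, an assembled row that touches an annotated exon in the same orientation (class o), spans 43475198 to 43503619 with 2 exons and 8634 bases. It had 4.73, 4.87 and 5.13 FPKM in control and 4.01, 4.20 and 3.41 in model samples (log2 fold change -0.28, standard error 0.11, unadjusted p = 0.0450, adjusted p = 0.945 by limma). MSTRG.30322.1, a single exon of 988 bases on the opposite strand inside an intron (43490149 to 43491136), had 7.47, 8.44 and 7.35 FPKM in control and 6.37, 6.22 and 5.45 in model samples (log2 fold change -0.32, standard error 0.10, unadjusted p = 0.0225, adjusted p = 0.945 by limma). Both ratios of group means were under 1 log2 unit, and neither row was called.

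Ywhae and Ywhab had no second isoform on their own strand. For Ywhae, on the plus strand of chromosome 10, ENSRNOT00000007100 (63884338 to 63921709, 6 exons, 1738 bases) had 110.9, 100.5 and 99.1 FPKM in control and 105.7, 90.6 and 119.6 in model samples, with overlap (log2 fold change 0.02, standard error 0.14, adjusted p = 0.995 by limma). Its other 3 rows were opposite-strand rows inside introns with between 3.80 and 7.42 FPKM. For Ywhab, on the plus strand of chromosome 3, the single row ENSRNOT00000016981 (160391106 to 160399931, 6 exons, 2691 bases) had 43.6, 38.97 and 40.7 FPKM in control and 42.5, 35.4 and 43.7 in model samples, also with overlap (log2 fold change -0.02, standard error 0.11, adjusted p = 0.991 by limma).

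Annotated isoforms held most of the FPKM in every library for all genes of the family except Ywhaz. Their share was 100% for Ywhab and Ywhah. It was 86.6% ± 1.46 in control and 87.2% ± 0.973 in model samples for Ywhae, and 71.3% ± 2.03 and 69.6% ± 9.56 for Ywhaq (SD, n = 3 each). For Ywhaz it was 57.3% ± 5.73 in control and 30.2% ± 11.0 in model samples. The groups of this share were apart for Ywhaz among the 4 genes with both kinds of isoform, and for 9.2% of the 9604 such genes in the table. The Ywhaz sum contains MSTRG.32789.3, whose values led to the choice of the family, so its share is no result in itself. Over those 9604 genes the median annotated share was 33.1% in control and 34.0% in model samples.

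**Figure D4:**
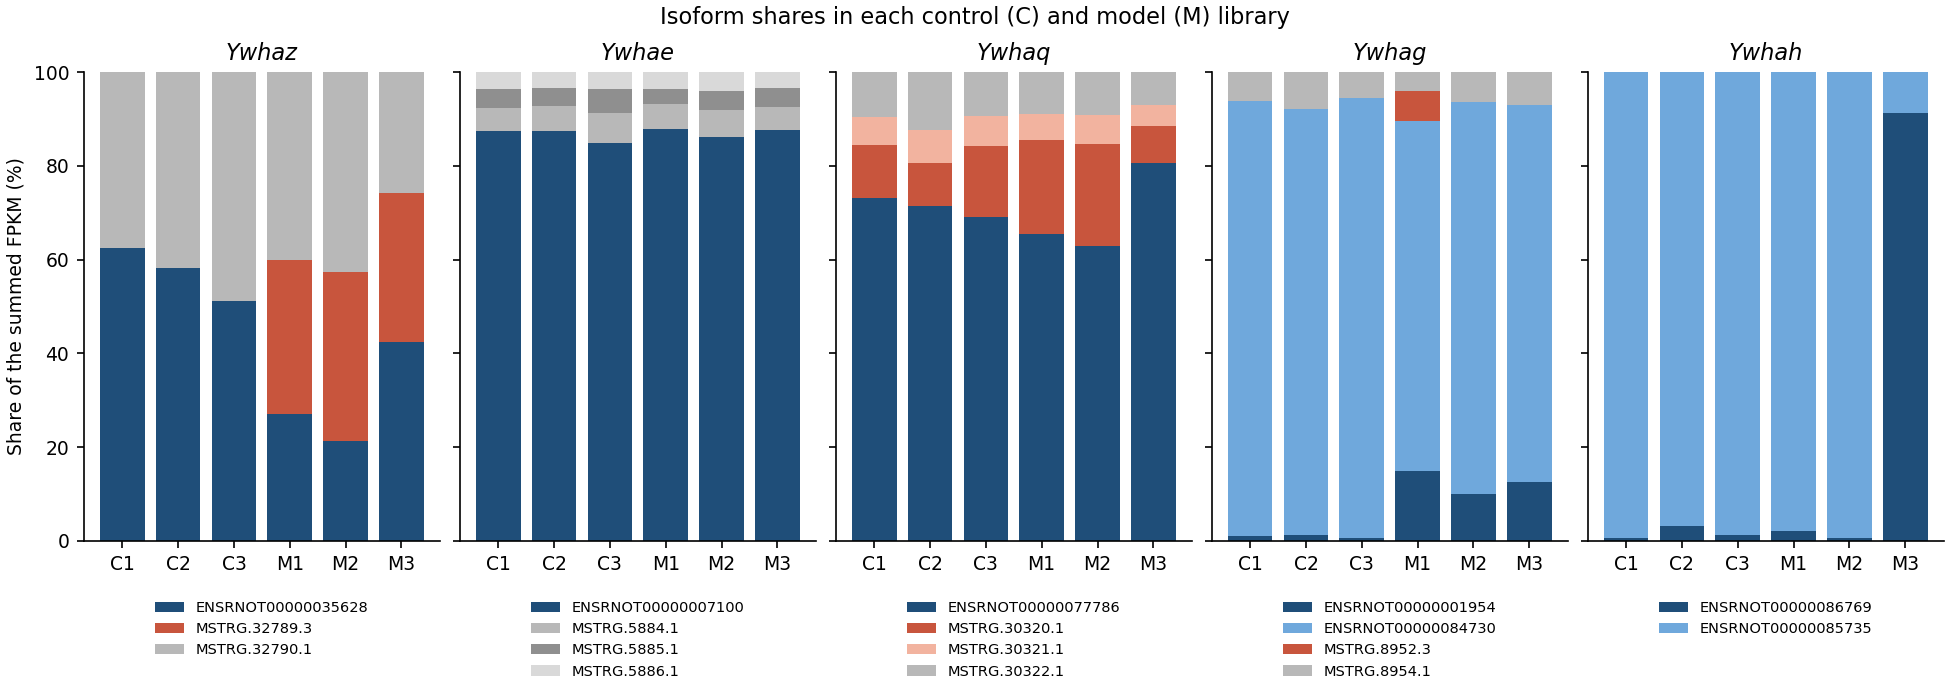
Share of each isoform in the FPKM of its gene (y axis, percent, bars stacked to 100%) in each control (C) and model (M) library, for the 5 genes with at least 2 rows. Blue marks annotated isoforms, red and pink assembled isoforms on the strand of the gene and grey rows on the opposite strand. The red part of Ywhaz is absent in the control libraries, and the Ywhah bar of M3 is reversed.

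Of the 10 assembled rows, 3 shared a splice junction with the annotation (class j), 1 overlapped an exon (class o) and 6 lay inside an intron (class i). All 6 intronic rows were on the strand opposite to their gene, with 1 or 2 exons, 988 to 8984 bases and 1.01 to 17.2 FPKM. Of 5378 intronic rows in the table whose gene has a known strand, 64.5% were opposite to it. Whether the strand of the reads was used in the assembly is not given in the sources used here. Without strand, reads of a gene and of its opposite-strand row cannot be told apart.

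Genes that bind 14-3-3 proteins, together with the remaining family gene Sfn (14-3-3 sigma), were taken as a list of 38 names. Of these, 36 were in the table and tested, 0 were called (1.52% of all gene sums) and 1 had an unadjusted p of at most 0.05 (4.91% of all). On the list, 22 had values above 0 on the log2 fold change scale and 14 below. The median log2 fold change of the list was 0.02 and that of all genes -0.01. Sfn had 1.74 FPKM in control and 1.22 in model samples (log2 fold change -0.29, standard error 0.17, adjusted p = 0.933 by limma). Crtc1, a coactivator of CREB that 14-3-3 proteins hold in the cytoplasm, had the smallest p with 8.41 FPKM in control and 10.8 in model samples (log2 fold change 0.33, standard error 0.11, unadjusted p = 0.0214, adjusted p = 0.933 by limma). Tbc1d4, a RAB GTPase-activating protein that restrains the glucose transporter GLUT4, had 10.8 and 12.5 FPKM. Braf, the RAF kinase, had 15.5 and 12.9 FPKM, and Mdm4, a p53 inhibitor, had 25.8 and 22.5 FPKM. Their unadjusted p were 0.103, 0.0663 and 0.0727, and the adjusted p was 0.933 for each by limma.

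Likeness to Ywhaz was measured as the mean absolute difference of centred log2(FPKM + 1) over the 6 libraries. Among 14314 genes, the sum of Ywhaz was nearest to that of Tsg101 (0.0226), an ESCRT subunit, Epn1 (0.0286), an endocytic adaptor, and Arhgef6 (0.0294), a RAC and CDC42 exchange factor. Among 45791 transcripts, MSTRG.32789.3 was nearest to the assembled MSTRG.28247.1 (0.0655), which was also at 0 in every control library, then to the isoform ENSRNOT00000014502 of Lcp1 (0.276), an actin bundling protein of leukocytes, and to MSTRG.33447.1 of Sun2 (0.305), a nuclear envelope protein. The Lcp1 isoform had 0.375 ± 0.249 FPKM in control and 10.9 ± 3.20 in model samples (SD, n = 3 each). These transcripts were picked for their likeness and carry no test.

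Circular RNAs were listed for Ywhae alone among the 6 genes. Exonic ones arise when a downstream splice site joins an upstream one. Of 5216 circular RNAs, 2 had Ywhae as host. The median total was 1 back-splice read over the 6 libraries, so absence for the other 5 genes cannot be told apart from low depth. The exonic circRNA1411 (chromosome 10, 63908528 to 63915032, 4 exons) had 0, 1 and 1 back-splice reads in control and 3, 0 and 1 in model samples. The intronic ciRNA9 (63911306 to 63912235) had 1 read in control 1 and 0 in the other libraries. Both were under the minimum of 10 reads over the 6 samples that 226 circular RNAs reached, so they were not tested, and at library totals of 2037 to 2964 back-splice reads a difference was not detectable at this depth.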

How the data were processed

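Lung RNA of 3 control and 3 PF model rats, 1 library per rat, was grouped by the sample titles. Per the methods, the authors used Cutadapt for trimming, Bowtie2 and TopHat2 for mapping and StringTie for assembly, whose results were merged over the libraries. They deposited FPKM and per-base coverage, an unscaled signal, for each transcript (StringTie and Ballgown). The submitters' processing notes also list HISAT2. Versions and the genome build are not given in the sources used here. For circRNAs the authors provided back-splice counts without normalization (TopHat-Fusion, CIRCexplorer). Their scaled circRNA signal was not used.

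Reads were estimated as coverage times length divided by 150, the read length. FPKM above 0 in at least 3 of 6 samples was required. Both groups were compared by limma 3.58.1 (trend) in R 4.3.3 on log2(FPKM + 1), two-sided, with Benjamini-Hochberg adjustment over all features. CircRNAs with at least 10 reads were to be tested with edgeR 4.0.16 (TMM), and DESeq2 1.42.0 was the alternative. Tests were checked on simulated data. Python 3.11.15, pandas 2.3.3, numpy 2.4.6 and matplotlib 3.10.9 served for sequences and figures.

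The members and lists were chosen with earlier results of these data known. Named isoforms were the annotated ones, those with a mean share of at least 10% in a group and those whose FPKM or share did not overlap at a mean of at least 1 FPKM. MSTRG.8952.3, MSTRG.8954.1, the transcripts named after neighbouring genes and the Ywhae intronic rows were added after their values were seen. Partner genes named were the 2 with the smallest p in each direction, and Mlxipl and Th of that list were not in the table. As alternatives, the pseudocount, the filter, the scaling and the test were varied, the replicate number was used as a block, and each sample was omitted in turn.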

Additional observations from a re-analysis of the deposited data

How the results depend on the processing

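The count of called 14-3-3 isoforms was 1 under each alternative run, and those of gene sums and partner genes were 0. For the Ywhae circRNAs, every run that kept the minimum of reads had 0 to test, so a count of 0 was fixed there. In the run with no minimum, 2 were tested and 0 were called. ENSRNOT00000001954 kept an unadjusted p of at most 0.05 in each fit, with an adjusted p between 0.0822 and 0.939. The same-numbered control and model samples did not deviate together (correlations 0.0647, 0.0276 and -0.0784). With the replicate block 1 isoform and 0 gene sums were called, and the adjusted p of that isoform was 0.939. The share of MSTRG.32789.3 differed by 33.6 percentage points as reported, by 58.5 with estimated reads, by 53.6 with sense rows and by 44.2 over the whole locus. Its control share was 0 on each basis, so a higher model share was fixed by the choice of the family. These runs give its size alone. The annotated share of Ywhaz changed by -27.0 and with sense rows by -53.6, and the share of ENSRNOT00000001954 by 11.5 and with estimated reads by 5.64. Log2 fold changes near 0 that were not called changed sign. Rescaled to TPM, they were 0.036 for MSTRG.5884.1, 0.060 for Ywhab and its isoform ENSRNOT00000016981 and 0.023 for Ywhaq. With a sum weighted by length, Ywhae was at -0.0081 and Ywhah at -0.117. With each sample left out in turn, the range was -0.079 to 0.120 for ENSRNOT00000007100, -0.092 to 0.031 for MSTRG.5884.1, -0.0073 to 0.081 for MSTRG.5886.1, -0.102 to 0.143 for ENSRNOT00000084730, -0.059 to 0.197 for MSTRG.8954.1 and -0.263 to 0.012 for ENSRNOT00000077786. It was -0.079 to 0.068 for Ywhab and its isoform, -0.086 to 0.1002 for Ywhae and -0.073 to 0.140 for Ywhah. It kept its sign but ran from 0.096 to 0.669 for MSTRG.30320.1, from 0.122 to 0.351 for Ywhag and from -0.125 to -0.015 for Ywhaq. For ENSRNOT00000086769 it was -0.032 to 2.20, with the lowest value without model 3. The cause was not tested. Over the whole table, 1934 transcripts and 298 gene sums were called, against 1066 and 84 at a mean FPKM of at least 1, and 1267 transcripts were called by an ordinary F test. At an adjusted p below 0.05, 18 transcripts were called, and between 0 and 36 under the alternatives. With no minimum of reads, the edgeR p of circRNA1411 was 0.645 and that of ciRNA9 was 0.364.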

Other observations

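The within-group coefficient of variation of the summed level of Ywhaq was 7.29%, and that of Ywhab, Ywhaz and Ywhae was 8.74%, 9.06% and 9.96%, against a median of 14.1% over 14320 genes with a mean of at least 1 FPKM. Ywhag and Ywhah were at 12.2% and 15.3%. Summed over the rows on the strand of the gene, the values were 19.3% for Ywhaz, 8.81% for Ywhaq, 8.74% for Ywhab, 10.7% for Ywhae, 12.9% for Ywhag and 15.3% for Ywhah, against a median of 13.8% over 13310 genes, so the low value of Ywhaz depended on its opposite-strand row. The 19.3% leaves out MSTRG.32789.1, the sense transcript of the Ywhaz locus named after a neighbour. With it the sums were 33.1 ± 2.57 FPKM in control and 26.4 ± 5.07 in model samples (SD, n = 3 each). By all rows, the 6 genes lay between the 87.4th percentile (Ywhag) and the 98.8th percentile (Ywhae) of level.

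How often a library has its isoforms reversed, as model 3 has for Ywhah, was counted after that value was seen. Of 88 genes with exactly 2 rows, both annotated, and a sum of at least 10 FPKM in every library, 11 (12.5%) had another leading isoform in some library, and 7 (7.95%) in exactly 1 library. Ywhah was the only one of the 7 whose leading isoform held at least 90% in every library. This cut lies under its lowest leading share, the 91.3% of model 3 already seen, so Ywhah was bound to meet it. Other cuts were not tried.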
